A study of Mus musculus with 4 samples.

Results

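The interferon-induced gene families described here are the 71 mouse genes whose symbol begins with Ifit, Ifitm, Oas, Ifi, Gbp, Irf, Irgm or Isg followed by a member number or letter, together with Mx1 and Rsad2. They were found by symbol among the 31053 genes of the deposited table. The symbol rule uses no measured value, but it was chosen with earlier results of these data known. In the 34783 cells analysed, 62 of the 71 had at least 100 UMIs (unique molecular identifiers, each a counted RNA molecule), against 13461 of all 31053 genes. Ifit1bl2, Ifitm5, Ifitm7 and Oas1e had between 1 and 99 UMIs. Ifi202b, Oas1d, Oas1f, Oas1h and Ifi44l had 0 UMIs, which allows up to 3 in these cells.

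The study dissociated mouse livers into single cells at 4 times of a gene-induced hepatocellular carcinoma model and counted RNA per cell with droplet sequencing. Its 4 samples, 1 for each time, are a normal liver at week 0 and tumours at week 4, week 8 and a last time, given as week 10 in the sample label and as week 12 in the text on the series. The labels name no strain, inducing gene, age or number of animals. The cells of all 4 samples lie in a single table, told apart by a number from 1 to 4 at the end of each cell barcode (here suffix 1 to suffix 4), and nothing in the sources used here ties a suffix to a time, so no value below is assigned to a week. The suffixes are 4 libraries with no replicate. No p-value was computed, and the 95% intervals in brackets cover counting error only.

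Interferons are cytokines that cells release on sensing viral or misplaced nucleic acid (type I) or that activated T and natural killer cells release (interferon gamma). Binding to their receptors sends transcription factors to the nucleus, where those of type I interferon bind the interferon-stimulated response element and those of interferon gamma bind gamma-activated sites. The induced proteins include Ifit proteins that bind viral RNA, Oas enzymes that activate an RNA-degrading nuclease, Ifitm proteins that hinder viral entry, Gbp and Irgm GTPases that act on the membranes around intracellular pathogens, nuclear Ifi200 proteins that bind DNA, and Irf factors that amplify or shape the response. In liver the same genes are active at low level in the steady state and are induced in viral hepatitis. The symbol rule also takes in genes that are not classical targets: Irf2bp1, Irf2bp2 and Irf2bpl encode IRF2-binding-type proteins, Isg20l2 is a relative of Isg20 that works on ribosomal RNA, and Irf4 and Irf8 set cell identity.

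Promoter sequence shows which members carry the letters that the 2 activating complexes recognise. RefSeq (GRCm38.p6) had 69 promoters for 57 members, each 300 bases long with 250 before and 50 from the transcription start, and 14 members had no entry. On either strand, the response element core GAAANNGAAA was in 30 of the 69 (43.5%) and in 1131 of all 32851 promoters (3.44%). It was in 7 of 8 promoters of Gbp and Irgm genes (87.5%), 8 of 11 of Ifi200 genes (72.7%), 12 of 19 of the Ifit, Oas, Rsad2 and Isg15 group (63.2%), 2 of 9 of Ifitm genes and 1 of 11 of Irf genes. The gamma-activated core TTCNNNGAA was in 14 of the 69 (20.3%) against 8.30% of all promoters, and in 3 of the 8 of Gbp and Irgm. In 6 member promoters copies of the first core overlapped each other, and in 1 the 2 kinds of core overlapped. The 8 examples that follow were chosen, with their matches known, to show several arrangements, and none has the 2 kinds of core overlapping. Each is the 160 bases before the start, on the strand of the gene, with both kinds of core in capitals: Isg15 (chr4:156200819-156200978, minus strand), Ifit1 (chr19:34640729-34640888, plus), Ifit3 (chr19:34583369-34583528, plus), Rsad2 (chr12:26456453-26456612, minus), Oas1a (chr5:120907526-120907685, minus), Ifi203 (chr1:173942493-173942652, minus), Irgm2 (chr11:58214817-58214976, plus) and Gbp7 (chr3:142530176-142530335, plus).
Isg15: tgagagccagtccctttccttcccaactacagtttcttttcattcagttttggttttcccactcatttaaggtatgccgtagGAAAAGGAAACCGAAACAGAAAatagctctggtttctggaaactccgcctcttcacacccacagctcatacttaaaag
Ifit1: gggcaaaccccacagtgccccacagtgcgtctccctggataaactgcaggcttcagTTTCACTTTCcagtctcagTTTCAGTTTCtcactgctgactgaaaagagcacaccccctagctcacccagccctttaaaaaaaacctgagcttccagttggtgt
Ifit3: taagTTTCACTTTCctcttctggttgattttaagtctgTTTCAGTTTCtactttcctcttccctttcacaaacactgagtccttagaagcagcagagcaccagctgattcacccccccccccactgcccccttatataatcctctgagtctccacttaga
Rsad2: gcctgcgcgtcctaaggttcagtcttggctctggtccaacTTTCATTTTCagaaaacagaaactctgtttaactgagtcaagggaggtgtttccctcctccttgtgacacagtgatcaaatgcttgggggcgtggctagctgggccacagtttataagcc
Oas1a: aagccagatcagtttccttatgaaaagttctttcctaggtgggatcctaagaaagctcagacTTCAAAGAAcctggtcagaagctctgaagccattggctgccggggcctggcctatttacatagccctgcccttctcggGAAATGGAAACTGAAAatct
Ifi203: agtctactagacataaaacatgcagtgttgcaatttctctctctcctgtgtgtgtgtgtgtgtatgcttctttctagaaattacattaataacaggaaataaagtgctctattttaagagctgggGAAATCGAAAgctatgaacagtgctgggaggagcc
Irgm2: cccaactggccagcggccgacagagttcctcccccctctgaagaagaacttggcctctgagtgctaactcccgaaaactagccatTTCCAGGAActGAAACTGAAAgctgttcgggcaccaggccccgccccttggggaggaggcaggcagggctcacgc
Gbp7: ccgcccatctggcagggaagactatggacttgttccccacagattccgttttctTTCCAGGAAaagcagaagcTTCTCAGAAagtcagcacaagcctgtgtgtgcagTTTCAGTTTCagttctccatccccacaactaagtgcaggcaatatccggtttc

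Isg15 held 3 overlapping response element cores starting 78, 72 and 66 bases before the start. Ifit1 and Ifit3 each held a separate pair, at 104 and 85 bases and at 156 and 122 bases. Rsad2 had a single core at 120 bases and Ifi203 a single core at 35 bases. Oas1a had an overlapping pair at 20 and 14 bases and a gamma-activated core at 98 bases. In Irgm2 the gamma-activated core at 75 bases stood next to a response element core at 64 bases. Gbp7 had gamma-activated cores at 106 and 87 bases and a response element core at 53 bases. A match is a description of letters, not evidence that a factor binds there.

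**Figure D1:**
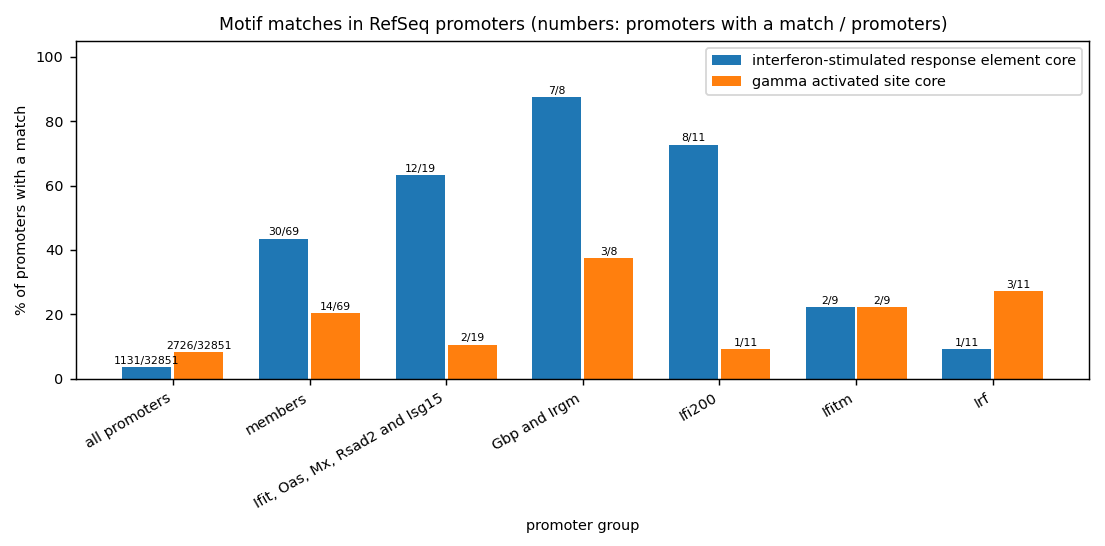
Percentage of promoters (300 bases each) holding the response element core or the gamma-activated core, for member families and for all promoters. The Gbp and Irgm promoters stand highest for the response element core at 87.5%, against 3.44% of all promoters.

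The libraries differed in depth, and this touches every comparison between suffixes. Analysed cells numbered 8584, 7970, 9788 and 8441 in suffixes 1 to 4, with median UMIs per cell of 1287, 3369, 1309.5 and 2597, so suffixes 2 and 4 were deeper than 1 and 3. Of 34194 distinct barcode sequences, 585 occurred under more than 1 suffix. Cells were grouped into 15 classes from markers that include no member: hepatocyte-like (18929 cells, 16 of 16 markers detected), sinusoidal endothelial-like (3886; 14 of 14), macrophage-like (2144; 13 of 15), T-like (1941; 14 of 15), Kupffer-like (786; 12 of 12), neutrophil-like (626; 11 of 14), B-like (610), vascular endothelial-like (539), natural killer-like (455), conventional dendritic-like (405), erythroid-like (333), stellate or fibroblast-like (324; stellate-like for short), plasmacytoid dendritic-like (259), myeloid progenitor-like (240) and cholangiocyte-like (101). A further 3205 cells stayed unnamed. The sinusoidal endothelial-like class joins 2 unlike clusters: 8 of the 10 leading genes of cluster 11 (2118 cells) were sinusoidal markers, among them Stab2, Clec4g and Dnase1l3, but 2 of 10 in cluster 9 (1768 cells), Egfl7 and Bmp2. Cluster 9 was otherwise led by genes such as Fabp4, Timp3 and Gpihbp1, and at a coarser clustering most of it joined vascular endothelial-like cells. Levels are CPM: the UMIs of a gene in a class, or in a class and suffix, divided by all UMIs there and scaled to a sum of 1000000. They are compared between cells for the same gene, not between genes. Suffix values are given where at least 20 cells stood behind them, in the order 1 to 4.

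Members were led by non-parenchymal and blood-derived cells, and none of the 62 had its highest level in hepatocyte-like cells, the most numerous class. Kupffer-like cells led 12 members (19.4%, against 5.85% of all 13461 genes), vascular endothelial-like cells 10 (16.1% against 6.34%) and neutrophil-like cells 9 (14.5% against 4.98%). The vascular endothelial-like count was 6 without suffix 3. T-like and B-like cells led 5 each, conventional dendritic-like cells 4, cholangiocyte-like, natural killer-like, erythroid-like, sinusoidal endothelial-like and plasmacytoid dendritic-like cells 3 each, and macrophage-like and stellate-like cells 1 each. Families were spread over several leading classes: 5 of 10 Gbp genes were highest in Kupffer-like cells, and the 5 Ifit genes had their highest levels in 4 different classes. A lead is only the highest level, and many leads were not clear of the next class. The interval of that ratio included equal levels for Gbp3, Gbp5, Gbp6 and Gbp8 in Kupffer-like cells. It did so too for Ifit1, Ifit3, Ifit3b and Ifit1bl1.

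**Figure D2:**
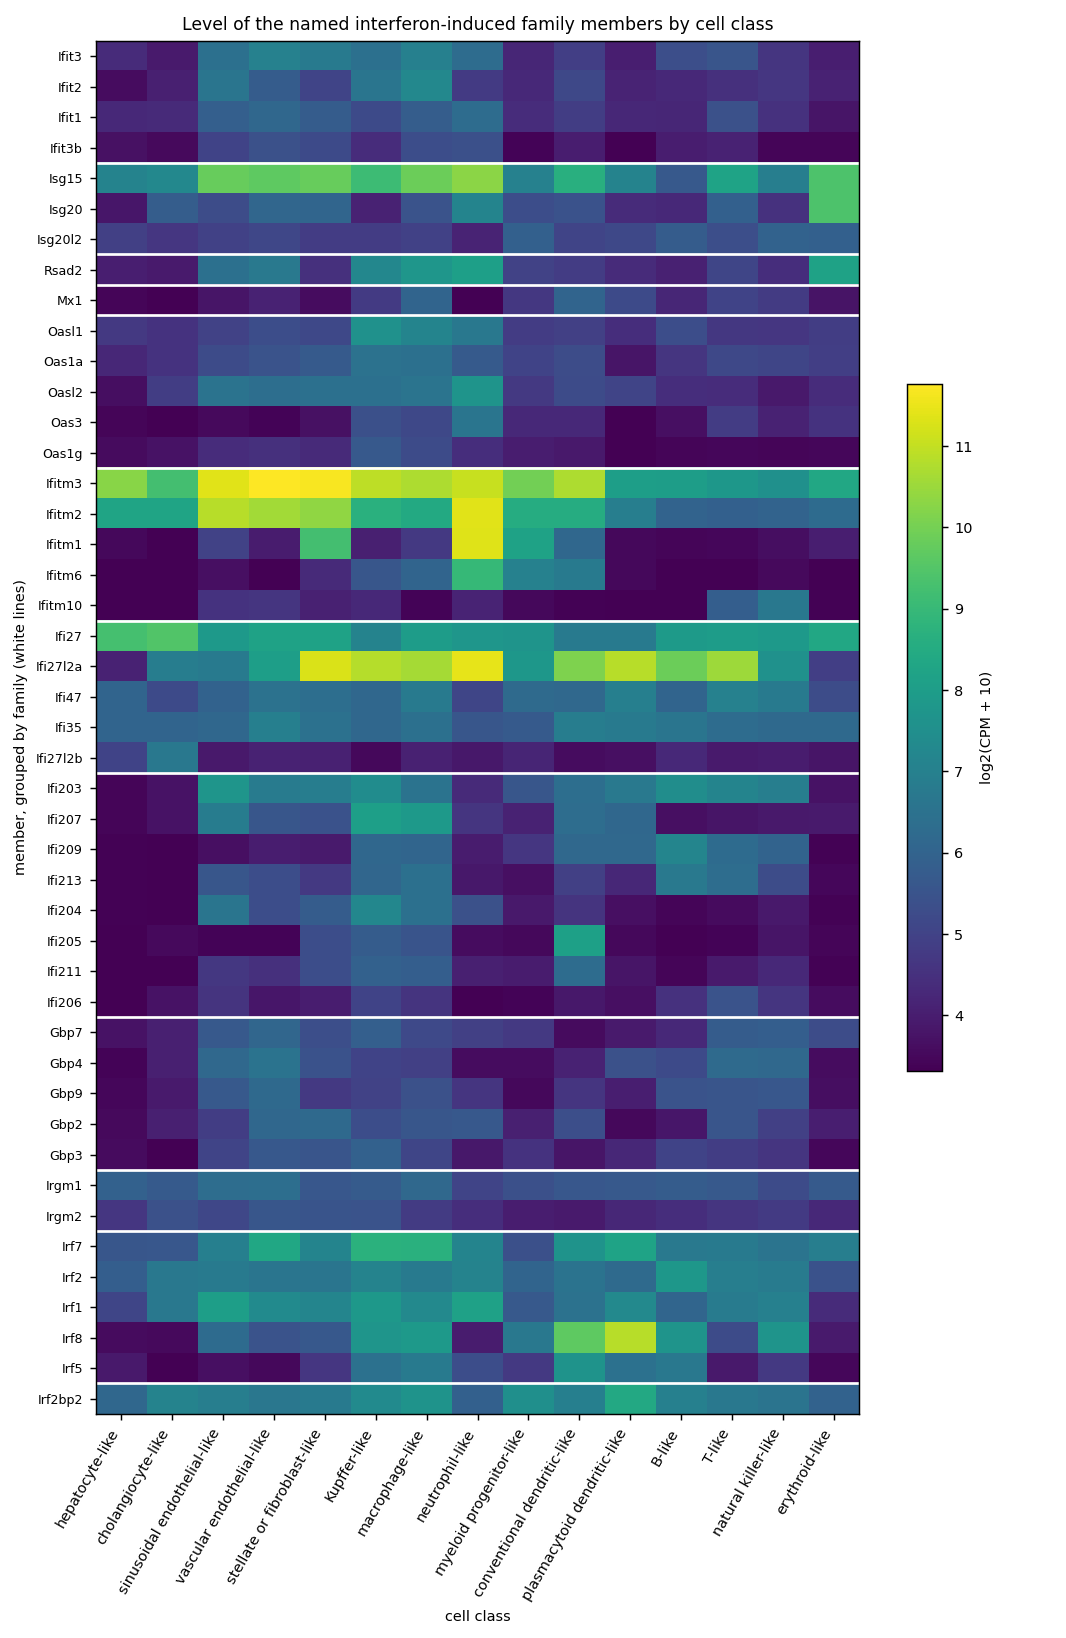
Heat map of log2(CPM + 10) for the named members (vertical axis, by family) in the 15 classes (horizontal axis). The hepatocyte-like column is brightest for Ifitm3, Ifi27 and Ifitm2, at 1229, 609.9 and 294.6 CPM.

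Ifit1, Ifit2, Ifit3 and Ifit3b, whose proteins sequester foreign RNA, were highest in macrophage-like, neutrophil-like or vascular endothelial-like cells. Ifit2 stood at 144.7 CPM in macrophage-like cells (30.9, 145, 175 and 155 by suffix), 1.65-fold [1.38-1.98] above Kupffer-like cells at 87.7. The low macrophage-like value was that of suffix 1, and the order of these 2 classes held in 2 of 4 suffixes. Ifit3 was at 119.6 CPM in vascular endothelial-like cells (46.9, 144, 147 and 147) and 117.3 in macrophage-like cells (38.7, 131, 70.1 and 108). The ratio of the summed levels was 1.02 [0.866-1.20], and vascular endothelial-like cells were higher in all 4 suffixes. Ifit1 stood at 69.6 CPM in neutrophil-like cells (7.69, 254, 46.9 and 50.9) on 61 UMIs, with suffix 2 far above the rest. In hepatocyte-like cells Ifit1, Ifit2 and Ifit3 were at 9.44, 2.24 and 10.7 CPM. RefSeq places Ifit1, Ifit3b and Ifit1bl1 in overlapping gene models and Ifit3 and Ifit3b are near copies, so reads may be split among them. Ifit1bl1, chosen for mention after its values were seen, was highest in T-like cells at 15.4 CPM.

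Isg15, a ubiquitin-like modifier, had 29741 UMIs and was highest in neutrophil-like cells. Its level there was 1253 CPM (1168, 1832, 985 and 1789), above macrophage-like cells at 927.8 (634, 972, 967 and 820) in all 4 suffixes and by 1.35-fold [1.26-1.44] in all. Stellate-like cells reached 875.8 CPM with a wide spread (553, 1274, 236 and 1928), and B-like cells were lowest at 40.8. Rsad2 (viperin, which makes an antiviral nucleotide) was at 279.9 CPM in erythroid-like cells (283 in suffix 2 and 274 in suffix 4) and at 260.3 in neutrophil-like cells (184, 611, 137 and 473). In both suffixes that held enough cells of each, 2 and 4, neutrophil-like cells were above erythroid-like cells, against the order of the summed levels. Neutrophil markers summed in erythroid-like cells to 71.2 and 31.2 CPM in suffixes 2 and 4, with 8 of 14 at 0. Macrophage markers summed there to 2204 and 996 CPM (37253 in macrophage-like cells), and their part in the result was not tested. Isg20, an RNA exonuclease, stood out in erythroid-like cells at 661.1 CPM (684 in suffix 2 and 595 in suffix 4), 5.12-fold [4.23-6.26] above neutrophil-like cells at 129. Mx1, an antiviral GTPase, was about level in conventional dendritic-like (55.8 CPM; 41.5, 81.1, 37.8 and 64.7) and macrophage-like cells (55.7; 27.1, 54.8, 68.3 and 59.5). It had 0 UMIs in neutrophil-like cells, the class where Isg15 and Oasl2 were highest.

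Of the 7 Oas genes with at least 100 UMIs, 4 were highest in Kupffer-like cells and Oasl2 and Oas3 in neutrophil-like cells. Oas1c, mentioned after its values were seen, was at 8.97 CPM in natural killer-like cells and 8.69 in B-like cells. Oasl1, which represses Irf7 translation, was at 182 CPM in Kupffer-like cells (144, 176, 291 and 212) and at 130.5 in macrophage-like cells (23.2, 116, 286 and 134), in that order in all 4 suffixes. Oasl2 was at 196 CPM in neutrophil-like cells (115, 279.8, 184 and 247), 2.34-fold [1.96-2.78] above macrophage-like cells, again in all 4. Oas3 was likewise highest in neutrophil-like cells at 86.8 CPM (23.1, 84.8, 95.9 and 116), 2.77-fold [1.92-4.04] above Kupffer-like cells. That order held in 3 of 4 suffixes, suffix 1 being the exception. Oas1a was at 81.6 CPM in Kupffer-like cells (67.6, 98.8, 79.3 and 112) and 76.2 in macrophage-like cells (58.0, 79.8, 57.2 and 76.3), a ratio of 1.07 [0.876-1.30] with Kupffer-like cells higher in all 4 suffixes. Oas1a and Oas1g are close copies whose reads may be shared.

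Ifitm genes, whose membrane proteins block fusion of entering viruses, were highest in neutrophil-like and vascular cells. Ifitm1 was at 2576 CPM in neutrophil-like cells (1045, 712, 4012 and 502), 4.28-fold [3.91-4.70] above stellate-like cells at 601.6 (595, 714, 709 and 378). Suffix 3 set that ratio: without it, it was 1.35. Ifitm6 was likewise highest in neutrophil-like cells, at 496.7 CPM (138, 365, 538 and 800) against 121 in myeloid progenitor-like cells, a ratio of 4.10 [3.44-4.92] that was 2.25 without suffix 4 and 1.496 with each cell thinned to 1000 UMIs. Ifitm2 reached 2660.3 CPM in neutrophil-like cells (3420, 1374, 3133 and 1360) and 1837 in sinusoidal endothelial-like cells, and was lowest in T-like cells at 49.8. Ifitm3 had the most UMIs of any member, 151182. It was high in vascular endothelial-like (3467 CPM; 2763, 3635, 3501 and 4176) and stellate-like cells (3245), and in natural killer-like cells it was at 178.6. Ifitm10 differed from its family, with 93.8 CPM in natural killer-like cells (162, 83.2, 65.7 and 93.3) and 46.9 in T-like cells, in that order in all 4 suffixes.

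Ifi27, a mitochondrial and nuclear-envelope protein, was the member nearest to an epithelial pattern. It was at 699.6 CPM in cholangiocyte-like cells (656 in suffix 1 and 816 in suffix 3) and 609.9 in hepatocyte-like cells (378, 453, 411 and 935), and this order turned when suffix 2 or suffix 3 was left out (ratio 0.991 and 0.992). Ifi27l2b reached 95.1 CPM in cholangiocyte-like cells (65.6 in suffix 1 and 136 in suffix 3) and 22.5 in hepatocyte-like cells, a ratio of 4.23 [3.18-5.52]. Their relative Ifi27l2a went the other way: 2760 CPM in neutrophil-like cells (1914, 1883, 3455 and 1833), 2483 in stellate-like and 1863 in plasmacytoid dendritic-like cells, and its lowest level, 7.65, in hepatocyte-like cells. Ifi27 and Ifi27l2a overlap in RefSeq, so reads of the first could count for the second. Ifi47, a GTPase related to Irgm, was at 120.4 CPM in T-like cells and 116.4 in plasmacytoid dendritic-like cells, and Ifi35 at 114 CPM in vascular endothelial-like cells. Ifi47 shares its position with Gm12188.

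Ifi200 genes, encoding nuclear DNA-binding proteins of the innate response, differed in which immune or endothelial class was highest. Ifi205 marked conventional dendritic-like cells, at 267 CPM (199.9, 359, 249.9 and 279) against 45.4 in Kupffer-like cells (67.6, 26.5, 30.2 and 6.61). The groups did not overlap, and the ratio was 5.89 [4.62-7.60], or 12.3 without suffix 1 and 3.09 with cells thinned to 1000 UMIs. Ifi204 was highest in Kupffer-like cells at 141 CPM (166.5, 79.5, 177.5 and 112), above sinusoidal endothelial-like cells (86.4) in all 4 suffixes by 1.63-fold [1.39-1.92]. Ifi207 was at 262.6 CPM in Kupffer-like and 224 in macrophage-like cells. Ifi203 was high in sinusoidal endothelial-like cells (202 CPM; 213, 111, 208.5 and 232), B-like cells (168), Kupffer-like cells (162) and T-like cells (130.4), and was at 0.786 in hepatocyte-like cells. Ifi209 was highest in B-like cells at 133 CPM (101 in suffix 2 and 156 in suffix 4), 1.99-fold [1.63-2.42] above T-like cells.

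Gbp and Irgm genes, the GTPases most strongly tied to interferon gamma, were low and spread over Kupffer-like, vascular endothelial-like and lymphoid cells. Gbp4 was at 82.2 CPM in vascular endothelial-like cells (82.1, 91.1, 56.1 and 80.0) and 66.2 in T-like cells (52.1, 66.7, 58.8 and 105.5), ranges that overlap. Gbp9 was at 63.8 CPM in vascular endothelial-like cells, 1.53-fold [1.20-1.94] above sinusoidal endothelial-like cells. Gbp7 at 58.9 CPM there and 49.1 in Kupffer-like cells had a ratio of 1.20 [0.882-1.64], and Gbp2 at 63.4 CPM in stellate-like and 60.7 in vascular endothelial-like cells had a ratio of 1.05 [0.748-1.45]. Gbp2b, mentioned after its values were seen, was almost restricted to Kupffer-like cells with 98 of its 125 UMIs (60.1 CPM; 93.9, 36.1, 26.4 and 6.61), against 4.09 in stellate-like cells, the next class. Irgm1, a regulator of autophagy, was about level across vascular endothelial-like (73.6 CPM), sinusoidal endothelial-like (71.6), macrophage-like (62.2) and hepatocyte-like cells (51.8), and Irgm2 was at 38.0 CPM in vascular endothelial-like cells and 15.4 in hepatocyte-like cells.

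Irf genes fell into lineage factors and response factors. Irf8, which plasmacytoid and type 1 conventional dendritic cells need, was at 1859 CPM in plasmacytoid dendritic-like cells (1811, 1762 and 1812 in suffixes 1 to 3) and 802 in conventional dendritic-like cells (673, 772, 815 and 956), 2.32-fold [2.16-2.49] lower, with no overlap between the classes. Irf4, needed for plasma cell differentiation and mentioned after its values were seen, was at 74.7 CPM in B-like cells (46.6 in suffix 2 and 93.5 in suffix 4; 86 UMIs), 6.92-fold [4.36-11.4] above conventional dendritic-like cells. That ratio was 13.1 without suffix 1, 4.13 without suffix 4 and 3.04 with thinned cells. Irf5, which acts behind Toll-like receptors, was at 192 CPM in conventional dendritic-like cells (134, 247, 134 and 254) and 103 in macrophage-like cells. Irf2, a repressor that competes with Irf1, was at 213.7 CPM in B-like cells (194 and 226 in suffixes 2 and 4), 1.67-fold [1.39-2.02] above Kupffer-like cells.

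Irf7, the factor that amplifies type I interferon output, was higher in Kupffer-like cells (340, 513, 385 and 509 CPM) than in macrophage-like cells (170, 483, 164 and 290) in all 4 suffixes. Summed over suffixes the 2 classes stood at 407 and 404.9 CPM, where 483 of 786 Kupffer-like cells came from suffix 1 and 1231 of 2144 macrophage-like cells from suffix 2. The next classes followed, with vascular endothelial-like cells at 316 and plasmacytoid dendritic-like cells at 291. Irf1 was at 272.9 CPM in neutrophil-like cells (169, 263, 294 and 305.5) and 252.9 in sinusoidal endothelial-like cells (102, 243, 233 and 436), a ratio of 1.08 [0.936-1.24]. The 2 clusters of the sinusoidal endothelial-like class were unlike, with Irf1 at 362.9 CPM in cluster 9 and 108 in cluster 11. Irf2bp2 was highest in plasmacytoid dendritic-like cells at 328 CPM, 1.71-fold [1.49-1.96] above macrophage-like cells.

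**Figure D3:**
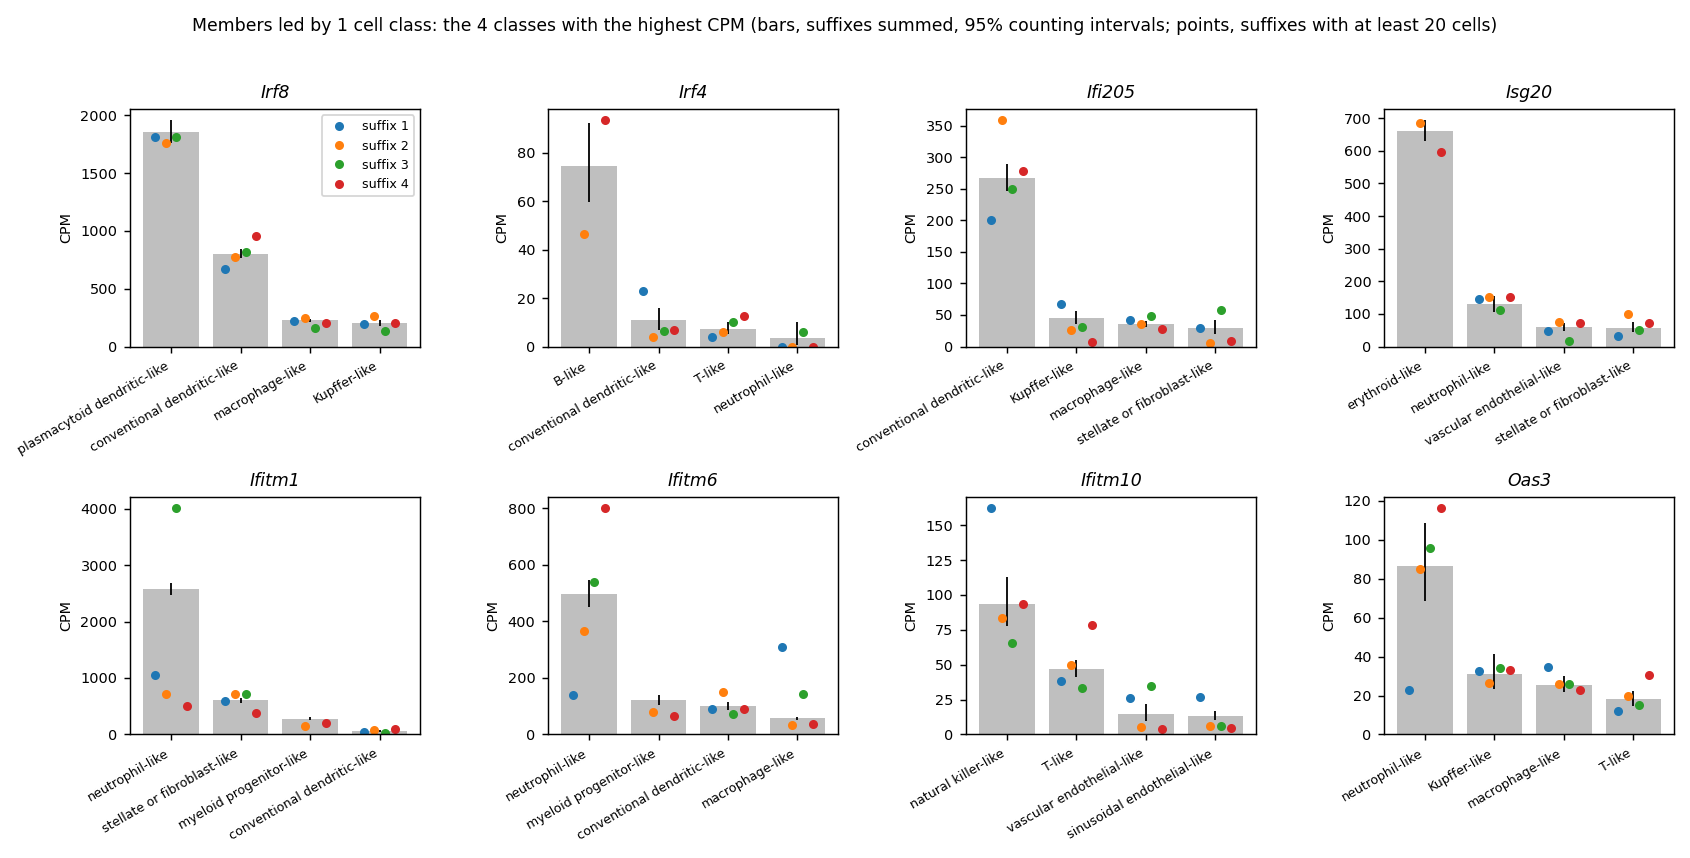
CPM of 8 members in their 4 highest classes (bars, class totals with 95% counting intervals; points, suffixes with at least 20 cells). Irf8 is highest in plasmacytoid dendritic-like cells at 1859 CPM, Ifi205 in conventional dendritic-like cells at 267 and Isg20 in erythroid-like cells at 661.1, and the Ifitm1 points in neutrophil-like cells run from 502 to 4012.

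Against hepatocyte-like cells, most members tested were at least 2-fold higher in each of the 5 largest other classes that were compared. In macrophage-like cells 41 of 55 members were higher, where 26.5% of all genes were, and 4 were lower, where 21.2% of all genes were. The members' median log2 ratio was 3.42, against 0.05 for all genes, and 39 of the 41 were higher in every suffix read. Rsad2 was 32.2-fold [29.1-35.7] higher, Ifit2 64.6-fold [55.2-76.0] and Irf7 10.7-fold [10.2-11.3]. The lower members included Gbp10, Ifi27 and Ifi27l2b.

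In Kupffer-like cells 34 of 48 members were higher (27.5% of all genes) and 4 lower (27.9%), with median log2 ratios of 2.98 for members and -0.01 for all genes. Sinusoidal endothelial-like cells had 33 of 47 higher (33.7% of all genes) and 4 lower (23.4%), with medians of 2.59 and 0.26. Ifi203 was 256.8-fold [200.1-334.6] and Irf1 10.5-fold [9.76-11.3] higher there than in hepatocyte-like cells. For Irf1 the class value joins 362.9 CPM in cluster 9 and 108 in cluster 11. The same 4 members were the lower ones in macrophage-like, Kupffer-like and sinusoidal endothelial-like cells.

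T-like cells had 32 of 51 members higher (26.9% of all genes) and 5 lower (25%), with medians of 1.45 and 0.11. Their lower members included Ifi27, Ifi27l2b, Ifitm2 and Ifitm3, and Ifitm3 was at 211 CPM against 1229 in hepatocyte-like cells. Neutrophil-like cells had 26 of 41 higher (15.7% of all genes) and 10 lower (45.8%), with medians of 2.19 and -0.83. The shift of all genes there was smaller under another scaling: without the 50 genes of most UMIs the all-gene median was -0.37 and the member counts were 27 higher and 7 lower. Without suffix 3 the lower count was 5. Isg20l2, Irf2bp1, Irf3, Irgm1, Ifi47 and Irf2bpl were lower in this class and in none of the other 4.

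Between libraries, the class called sinusoidal endothelial-like differed in Ifit, Oas, Isg15 and Rsad2 members and in its own makeup. Cluster 11 held 93.7% of the class in suffix 1, and cluster 9 held 93.0%, 54.6% and 95.4% in suffixes 2, 3 and 4. Of 38 members tested, 14 were at least 2-fold higher in suffix 4 than in the mean of the other 3 suffixes, where 1.94% of all genes were, and 1 (Ifitm1) was lower, where 3.73% were. In suffix 1, 17 were lower (11.2% of all genes) and 2, Ifitm1 and Ifitm2, were higher (6.45%). Isg15 was at 245, 825, 411 and 1839 CPM, a range of 7.50-fold [6.80-8.30]. Irf7 was at 36.8, 123, 49.4 and 223 CPM. Ifit3 was at 20.8, 74.4, 54.1 and 152 CPM. All 3 followed the order suffix 4, 2, 3, 1, whereas Ifitm2 ran at 2726, 1142, 1328 and 1376 CPM, highest in suffix 1.

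The genes higher in suffix 4 took in Ifit1, Ifit2, Ifit3, Ifit3b, Isg15, Isg20, Rsad2, Oasl1, Oasl2, Irf1, Irf7, Ifi213, Ifi27l2a and Gbp3. The count was 9 without suffix 1, and the count lower in suffix 1 was 9 without suffix 4. In suffix 2, 1 member was higher (8.01% of all genes) and 1 lower (6.18%), and in suffix 3, 0 were higher (0.731%) and 7 lower (9.77%). With coarser clustering, where most of cluster 9 left the class, 3 members were higher in suffix 4 and 2 lower in suffix 1. Within cluster 9 alone, 14 of 30 members were higher in suffix 4 (2.87% of all genes) and Isg15 was at 179, 848, 539 and 1882 CPM. Markers of hepatocytes summed to 6471, 16541, 7556 and 11309 CPM in the class by suffix and those of macrophages to 3578, 4934, 2759 and 4389, and their part in the result was not tested.

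**Figure D4:**
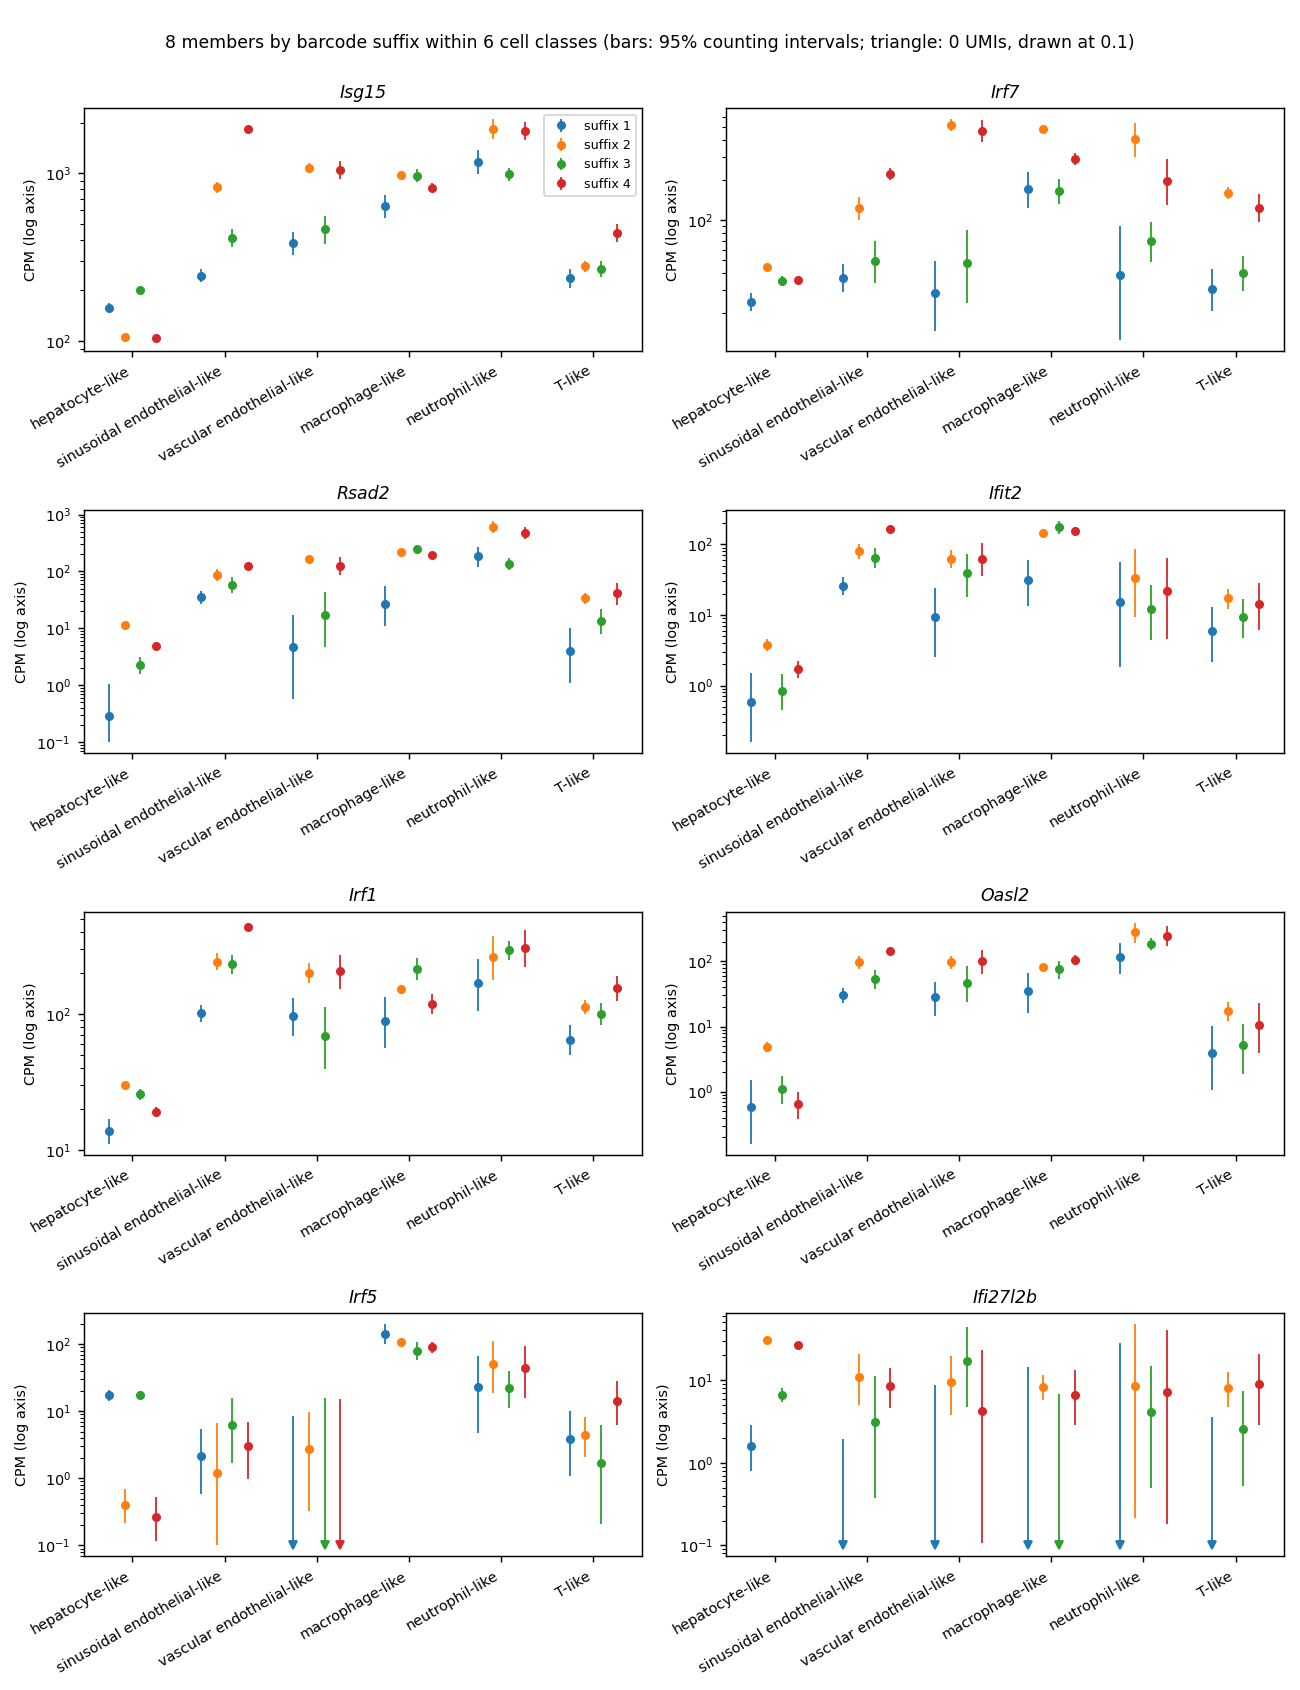
CPM by barcode suffix (log axis, 95% counting intervals) of 8 members in 6 classes. In sinusoidal endothelial-like cells Isg15 is at 245, 825, 411 and 1839 CPM in suffixes 1 to 4, and in hepatocyte-like cells Irf5 is at 17.4 and 17.7 CPM in suffixes 1 and 3 and at 0.41 and 0.27 in suffixes 2 and 4.

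Vascular endothelial-like cells split the libraries into pairs. Irf7 was at 28.1, 517, 47.5 and 471 CPM and Rsad2 at 4.69, 165, 17.3 and 126, so suffixes 2 and 4 were high and 1 and 3 low with no overlap. Isg15 was at 382, 1077, 462 and 1048 CPM. Cluster 34, led by Igfbp3, Ly6c1 and Plvap, held 95.5% and 77.3% of the class in suffixes 2 and 4, and its Irf7 level was 533 and 536 CPM there. Clusters 8 and 22 held the class in suffixes 1 and 3, with Irf7 at 40.8 and 42.9 CPM over all suffixes. Library and cluster cannot be told apart for these cells.

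In hepatocyte-like cells many genes differed between libraries, and in suffixes 1 and 2 the members did so about as often as all genes. In suffix 2, 11 of 39 members were higher (27.1% of all genes) and 2 lower (4.67%), and in suffix 1, 2 were higher (3.61%) and 11 lower (33.9%). The last count was 6 without suffix 2 and 17 without suffix 4. In suffix 3, 3 were higher (2.51%) and 4 lower (20.1%). In suffix 4, 2 were higher (2.89%) and 8 lower (5.03%). Member counts were thus above the background for lower genes in suffix 4, which took in Gbp2, Gbp3, Gbp9, Oasl2, Irf5, Isg20, Ifitm1 and Ifi27l2a. Isg15 was at 158, 106, 200.5 and 104.5 CPM, a narrower range than in endothelial cells and in another order.

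Single members of the hepatocyte-like class moved far more. Rsad2 was at 0.290, 11.3, 2.27 and 4.95 CPM, a 38.8-fold range resting on 2 UMIs in suffix 1. Ifi27l2b was at 1.60, 31.0, 6.61 and 26.4 CPM, high in suffixes 2 and 4. Ifi27 was at 378, 453, 411 and 935 CPM, with only suffix 4 standing apart. The macrophage marker sum in hepatocyte-like cells was 1811, 6296, 3446 and 4847 CPM by suffix, highest in suffix 2 like Rsad2, and its part in these results was not tested.

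Irf5 had the widest range of any member in hepatocyte-like cells. It was at 17.4, 0.41, 17.7 and 0.27 CPM, a 65.7-fold range with suffixes 1 and 3 high and 2 and 4 low. In macrophage-like cells Irf5 was at 143, 106.5, 79.4 and 90.5 CPM. The gene overlaps Tnpo3, a nuclear import receptor, whose own level in hepatocyte-like cells was 15.8, 23.5, 14.9 and 18.7 CPM. Hepatocyte-like clusters are also divided by library: clusters 5 and 6 held 54.6% and 43.8% of the class in suffix 1, with Irf5 at 19.1 and 14.9 CPM there, and clusters 17 and 35 held 32.7% and 30.7% in suffix 3, with Irf5 at 23.7 and 17.0 CPM. In cluster 27, which suffixes 2, 3 and 4 share, Irf5 had 3, 1 and 1 UMIs, and its suffix 3 cells numbered 65. The part of macrophage RNA, of Tnpo3 reads and of cluster makeup in the Irf5 range was not tested.

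In macrophage-like cells of suffix 1, 12 of 48 members were at least 2-fold lower, a share near that of all genes (24.3%), and 3 were higher (3.6%). Rsad2 was at 27.1, 219, 249 and 192 CPM. Oasl1 was at 23.2, 116, 286 and 134 CPM, and Irf7 at 170, 483, 164 and 290. Suffix 1 was thus low for all 3, but suffix 3 was high for Oasl1 and low for Irf7. Ifitm6, an Ifitm gene of myeloid cells, went the other way at 309, 35.0, 144 and 36.9 CPM.

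In the other suffixes of the macrophage-like class, 1 member (Irf7) was higher in suffix 2 (6.97% of all genes) and 2 lower (3.1%), and 4 were higher in suffix 3 (2.74%) and 5 lower (12.5%). In suffix 4, 1 (Ifi27) was higher (7.22%) and 6 lower (2.99%), among them Gbp4, Gbp5, Ifitm1, Ifitm2 and Ifitm6. Cluster 12 held 81.3%, 52.4%, 47.9% and 34.8% of the class by suffix, and within it Irf7 kept the same pair of low libraries at 164, 559, 145 and 363 CPM.

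Smaller classes repeated parts of these patterns. Irf7 in neutrophil-like cells was at 38.4, 407, 69.4 and 196 CPM, a 10.6-fold range, and in T-like cells at 30.5, 159, 40.0 and 123, so suffixes 2 and 4 were above 1 and 3 in both. In Kupffer-like cells its levels lay closer, from 340 to 513 CPM. Rsad2 in neutrophil-like cells was at 184, 611, 137 and 473 CPM. In Kupffer-like cells Rsad2 was at 78.9, 123, 309.7 and 198 CPM, with suffix 3 highest. The median range between suffixes was 1.83-fold over 20 members in Kupffer-like cells and 1.76-fold over 22 in conventional dendritic-like cells. It was 1.87-fold over 7 in stellate-like cells and 1.93-fold over 9 in natural killer-like cells. In hepatocyte-like, sinusoidal endothelial-like, macrophage-like, T-like, vascular endothelial-like and neutrophil-like cells it lay between 2.33-fold and 2.60-fold. Kupffer-like, stellate-like and natural killer-like ranges rest on 3 suffixes with at least 50 cells, the rest on 4, and fewer suffixes tend to give a smaller range.

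At a depth of 1000 UMIs, cells expressing several of these genes at once were most frequent among macrophage-like and neutrophil-like cells. To compare cells of unequal depth, each was thinned to 1000 UMIs, and a cell was counted when at least 3 of 20 Ifit, Isg15, Oas, Mx1 and Rsad2 members had a UMI. Of 26163 cells deep enough, unnamed ones included, 635 did (2.43%). The share was 13.9% [12.3-15.7] in macrophage-like cells (3.41%, 14.5%, 12.5% and 15.9% by suffix; 36.4% before thinning), with 566 shallower cells left out. It was 13.2% [9.98-17.1] in neutrophil-like cells (10.7%, 27.1%, 7.73% and 22.4%; 22.0% before thinning), or 22.1% without suffix 3. Here 248 shallower cells were left out, 127 of them in suffix 1, where 28 remained. Kupffer-like cells had 8.90% (5.84%, 7.45%, 14.4% and 25.0%), with 258 cells left out and 36 remaining in suffix 4. Erythroid-like cells had 6.62% (18 of 272 cells), vascular endothelial-like cells 5.73% and stellate-like cells 4.66%. Conventional dendritic-like, T-like, myeloid progenitor-like and B-like cells had 2.99%, 2.72%, 1.98% and 0.5%. The rank of neutrophil-like cells depended on depth. Thinned to 2000 UMIs, macrophage-like cells had 27.4%, Kupffer-like 25.5%, sinusoidal endothelial-like 23.1%, vascular endothelial-like 21.1% and neutrophil-like 20.9%. Before thinning, Kupffer-like, stellate-like, erythroid-like and vascular endothelial-like cells stood above neutrophil-like cells, at 29.5%, 27.1%, 25.4% and 24.1%.

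Sinusoidal endothelial-like cells had 6.54% (0.704%, 5.64%, 1.42% and 15.6%; 16.1% before thinning), with 2037 of 3886 cells left out, and the share was 10.2% without suffix 1 and 2.10% without suffix 4. Cluster 9 carried this share: it had 11.6% (6.21%, 2.65% and 16.3% in suffixes 2, 3 and 4), cluster 11 had 0.588%, and the class with coarser clustering had 0.571%. Hepatocyte-like cells had 0.471% (72 of 15297 cells; 2.65% before thinning), or 0.287% without suffix 2. In natural killer-like cells it was 0 of 405, which allows a share of up to 0.741% by the limit of 3 counts (exact 95% limit 0.907%), and in plasmacytoid dendritic-like cells 0 of 253, which allows up to 1.19% (exact limit 1.45%). Before thinning these classes had 4.94% and 2.77%, and thinned to 2000 UMIs 2.5% and 1.89%, so the zeros hold for the depth of 1000 UMIs. Median UMIs per hepatocyte-like cell were 1498.5, 4939, 1433 and 3422 by suffix and per sinusoidal endothelial-like cell 872, 1337, 817.5 and 1279, before thinning.

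**Figure D5:**
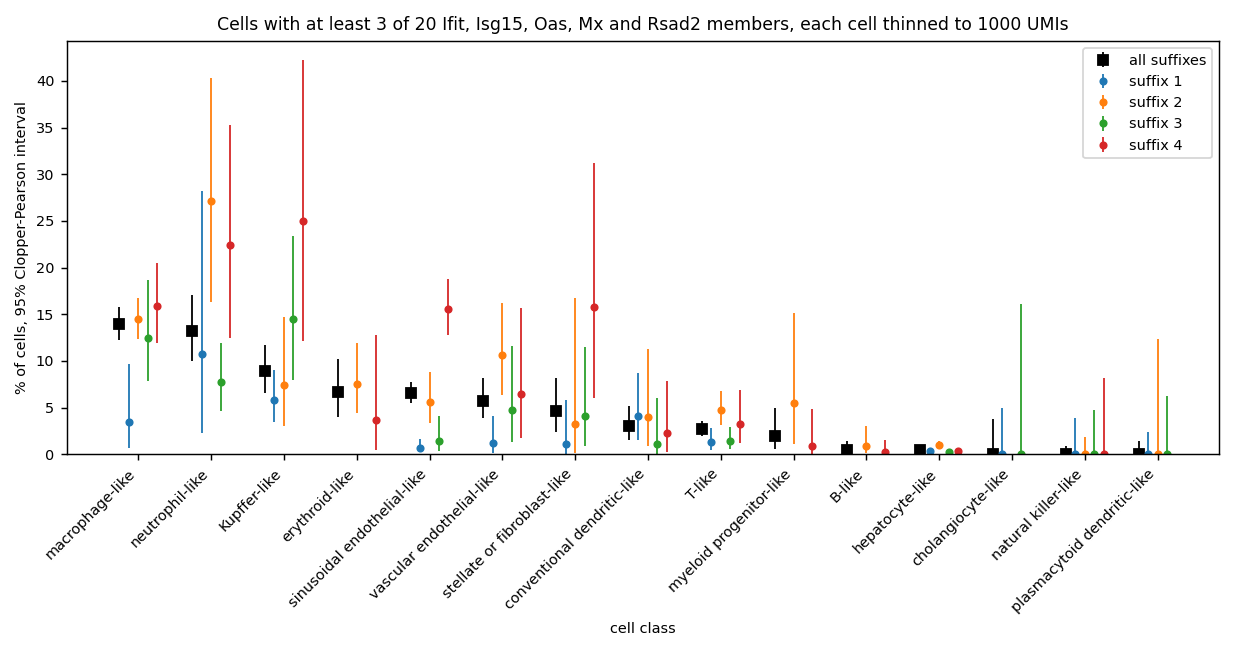
Percentage of cells, thinned to 1000 UMIs, with at least 3 of 20 Ifit, Isg15, Oas, Mx1 and Rsad2 members, by class for all suffixes (black squares) and each suffix (points), with exact 95% binomial (Clopper-Pearson) intervals. Macrophage-like and neutrophil-like cells are highest at 13.9% and 13.2%, and natural killer-like and plasmacytoid dendritic-like cells are at 0.

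In the 635 cells Isg15 was present in 88.2% (13.9% of the other cells), Rsad2 in 48.3% (1.71%), Ifit3 in 41.4% (1.25%) and Mx1 in 14.5% (0.392%), values that the count itself fixes. Members outside the 20 were not used to pick the cells. Irf7 was 3.32-fold [2.81-3.91] higher per UMI in such macrophage-like cells than in the rest of the class. It was 2.94-fold [1.99-4.22] higher in sinusoidal endothelial-like cells, 4.64-fold [2.45-7.99] in hepatocyte-like cells and 9.78-fold [6.40-14.6] in T-like cells. In Kupffer-like cells the Irf7 ratio was 1.32 [0.825-2.03], an interval that includes equal levels. Irf1 was 3.31-fold [2.61-4.16] and Gbp4 2.65-fold [1.51-4.41] higher in the sinusoidal endothelial-like cells. Of the cells counted in that class, 116 were in cluster 9 and 5 in cluster 11. Its ratios therefore also compare the 2 unlike clusters, and the part of cluster makeup was not tested. In neutrophil-like cells Ifitm1, Ifitm2 and Ifitm6 were at 0.528 [0.418-0.660], 0.728 [0.587-0.895] and 0.554 [0.280-0.999] of the level in the rest. Ifitm3 was 1.28-fold [1.05-1.55] and Ifi27l2a 2.03-fold [1.76-2.33] higher there. Ifitm2 was also low, at 0.529 [0.440-0.631], in the sinusoidal endothelial-like cells. These ratios pool suffixes, and the suffixes take unequal parts in the 2 groups of cells.

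Members with the most similar levels over the 15 classes, by Pearson r of log2(CPM + 10), included Ifit3 and Ifit3b (0.951), Ifit1 and Ifit3b (0.942), Oas2 and Oas1g (0.928), Ifi204 and Oas2 (0.926) and Ifitm2 and Ifitm3 (0.924). Several of these pairs are copies or neighbours that may share reads, and all classes share the same 4 libraries.

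The rest of the pathway was read from lists of other genes. Of 21 interferon genes only Ifnb1 and Ifng had at least 100 UMIs. Ifnb1 (interferon beta) had 468, with 65.1 CPM in macrophage-like and 12.9 in Kupffer-like cells, and Ifng had 604, with 91.9 CPM in T-like and 88.1 in natural killer-like cells. Receptor chains were low in hepatocyte-like cells (Ifnar1 8.33 CPM, Ifnar2 57.7 and Ifngr1 14.7) and highest in plasmacytoid dendritic-like cells for Ifnar1 (131) and Ifnar2 (445) and in natural killer-like cells for Ifngr1 (387). The lambda receptor chain Ifnlr1 had under 100 UMIs.

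Other interferon-induced genes, such as Bst2, Ly6e and Herc6, were set against hepatocyte-like cells, with the share of all genes in brackets. In macrophage-like cells 29 of 33 were at least 2-fold higher (26.5%) and 1 lower (21.2%). Kupffer-like cells likewise had 29 higher (27.5%) and 1 lower (27.9%). Sinusoidal endothelial-like cells had 26 of 31 higher (33.7%) and 1 lower (23.4%), and T-like cells 23 of 33 higher (26.9%) and 1 lower (25%). In neutrophil-like cells 15 of 29 were higher (15.7%) and 2 lower (45.8%). Interferon gamma-induced genes included the chemokines Cxcl9 and Cxcl10 (179 and 508 CPM in sinusoidal endothelial-like cells, their highest class). Cxcl10 was among the leading genes of cluster 9 of that class. Of the gamma-induced genes, 13 of 18 were higher (33.7%) and 0 lower (23.4%) in sinusoidal endothelial-like cells. Macrophage-like cells had 13 of 19 higher (26.5%) and 1 lower (21.2%), and neutrophil-like cells 7 of 15 higher (15.7%) and 5 lower (45.8%). Usp18, which shuts off type I receptor signalling, was at 42.7 CPM in plasmacytoid dendritic-like and 34.5 in hepatocyte-like cells, a smaller contrast than that of most members.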

How the data were processed

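Liver cells of 4 mouse samples were profiled with a 10x Genomics 3′ kit, per the labels' protocols. The deposited table holds raw UMI counts per gene and cell, which the authors made with Cell Ranger (version 6.0.1 per the file headers) on genome build mm9, as the submitters' processing notes state. The 71 members and all gene lists were chosen with earlier results of these data known. Of 38072 barcodes (9222, 9027, 10316 and 9507 by suffix), cells with at least 200 genes, at least 500 UMIs and under 20% mitochondrial UMIs were kept (1922 failed), and 1367 with a Scrublet doublet score above 0.25 were removed (3.78%). Library totals were 15593960, 49975828, 24012736 and 40617071 UMIs.

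Cells were clustered with scanpy 1.11.5 and igraph 0.11.9 on 2000 variable genes without the members, 30 components, 15 neighbours and resolution 2. Clusters were named from fixed markers, at least 3 of them detected in at least 10% of cells, and classes had at least 90 cells. Counts were summed per class and suffix. With no replicates, no count model or test was used: a gene counted as higher or lower at a 2-fold ratio, over all genes with enough UMIs. Intervals are exact, at 95%, and cover counting error only. Shares of cells used counts thinned to 1000 UMIs. The scripts were tested on simulated data. Named members are those with the most UMIs in each family, the largest ratio of leading to second class, or the widest suffix range. Where another member is described, the text says that it was chosen after its values were seen. Promoters come from RefSeq GRCm38.p6, another build than the counts, so no position was joined to a count. Other software was Python 3.11.15, numpy 2.4.6, scipy 1.17.1, pandas 2.3.3, scikit-learn 1.9.0 and matplotlib 3.10.9. Values of some withheld genes are not reported here.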

Additional observations from a re-analysis of the deposited data

Results flagged for a closer look

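Irf4 stood above its highest named class in cells that the comparisons do not use. Cluster 0 stayed unnamed: its 1788 cells are led by immunoglobulin genes. Irf4 was at 123.9 CPM there on 291 UMIs, against 74.7 CPM in B-like cells on 86 UMIs, a ratio of 1.66 [1.30-2.14] over all suffixes, and with no replicate the difference was not tested.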

How the results depend on the processing

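No paired analysis was possible because each group holds 1 sample and the suffixes carry no replicate numbers. Of the main counts and shares, 226 values under alternatives moved by less than 1.5 times (counts) or within their interval (shares) and 43 by more. Of ratios for single members, 182 stayed, 38 moved and 4 reversed: Ifi27 in cholangiocyte-like over hepatocyte-like cells was 0.991 without suffix 2, 0.992 without suffix 3, up to 1.64 without suffix 4, and 0.981 with thinned cells, and Ifi211 in conventional dendritic-like over Kupffer-like cells was 0.941 with thinned cells. The causes were not tested.

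Leaving out each suffix in turn, members led ranged from 9 to 11 for Kupffer-like, 6 to 12 for vascular endothelial-like and 7 to 10 for neutrophil-like cells. Members higher than in hepatocyte-like cells ranged from 28 to 31 (sinusoidal endothelial-like), 30 to 41 (macrophage-like), 24 to 32 (T-like), 26 to 33 (Kupffer-like) and 19 to 26 (neutrophil-like), and lower members from 3 to 5, 3 to 4, 5 to 6, 3 to 5 and 5 to 10. In sinusoidal endothelial-like cells 9 to 14 were higher in suffix 4 and 9 to 17 lower in suffix 1. In hepatocyte-like cells 9 to 11 were higher in suffix 2 and 6 to 17 lower in suffix 1, and in macrophage-like cells 9 to 13 were lower in suffix 1. Shares of cells with at least 3 members ranged from 0.287% to 0.551% (hepatocyte-like), 12.9% to 14.6% (macrophage-like), 10.7% to 22.1% (neutrophil-like) and 2.10% to 10.2% (sinusoidal endothelial-like).

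At clustering resolution 1 most cells of cluster 9 joined a vascular endothelial-like cluster, and the sinusoidal endothelial-like class then had 3 members higher in suffix 4, 2 lower in suffix 1 and a share of 0.571%. With members kept among the clustering genes, vascular endothelial-like cells led 6 and the hepatocyte-like share was 0.291%. At 1.5-fold, 23 members were higher in suffix 4 of sinusoidal endothelial-like cells, and 18 higher in suffix 2 and 22 lower in suffix 1 of hepatocyte-like cells. At 3-fold these were 8, 7 and 5, with 7 lower in suffix 1 of sinusoidal endothelial-like and 7 of macrophage-like cells, and members lower than in hepatocyte-like cells were 2 (sinusoidal endothelial-like), 2 (macrophage-like), 3 (T-like) and 5 (neutrophil-like). With suffixes weighted equally 6 were lower in neutrophil-like cells, and with members of at least 1 UMI tested 43 were higher there. Shares with at least 2 members were 28.2% (macrophage-like), 31.2% (neutrophil-like), 21.3% (sinusoidal endothelial-like) and 1.54% (hepatocyte-like). With at least 4 they were 7.22%, 6.61%, 2.33% and 0.216%, and thinned to 2000 UMIs 27.4%, 20.9%, 23.1% and 0.977%. In cluster 9 alone, an alternative chosen after seeing the data, the sinusoidal endothelial-like share was 11.6%. The longer motif GAAANNGAAANC was in 17.4% of member promoters. Depth limits low members most: with under 100 UMIs no order of classes was read.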

Other observations

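In the same unnamed immunoglobulin-rich cluster, 2 further members were at or above the level of B-like cells, their highest named class. Ifi209 was at 152 CPM against 133 (ratio 1.15 [0.947-1.40]) and Irf2 at 215.5 against 213.7 CPM (1.01 [0.864-1.18]). Both intervals include equal levels.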
